A study of Mus musculus with 14 samples.

Results

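The genes of glucose uptake, glycolysis, lactate export and pyruvate entry into mitochondria were followed in Ocy454 cells, a mouse osteocyte-like line. The 38 genes were taken by symbol from the table of the differentiation experiment, where they are 38 of 39179 genes, and by gene identifier from the sorted cells, where they are 38 of 35886. Ocy454 cells carry a thermosensitive large T antigen, divide at 33 °C and differentiate at 37 °C. All 14 libraries come from this 1 line with no further genetic change or drug, so they describe 1 line and not osteocytes in bone. Polyadenylated RNA was sequenced in 2 biologic replicates at each of days 1, 7, 10 and 14 at 37 °C (8 libraries), and in 3 replicates each of CD61-high and CD61-low cells, the 10% of live cells with the highest and the lowest surface CD61 (integrin beta-3, encoded by Itgb3) after 17 days (6 libraries).

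Glycolysis turns glucose into pyruvate in a chain of cytosolic reactions, several of which are served by alternative isozymes encoded by separate genes. Pyruvate is then either reduced to lactate by lactate dehydrogenase and exported, or carried into mitochondria and oxidized by the pyruvate dehydrogenase complex, which the pyruvate dehydrogenase kinases switch off. Many of these genes are known targets of the hypoxia-inducible factors (HIF), whose binding site holds a short core sequence.

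The deposited libraries held 27518605 to 34311238 reads in the differentiation experiment and 18815602 to 19220064 estimated counts in the sorted cells. Of the osteocyte markers, Dmp1 was 0.915 and 1.00 CPM (counts scaled to 1 common library total) at day 1 and 52.1 and 57.6 CPM at day 14. Itgb3 was 5.31 to 6.10 CPM in CD61-low and 100.1 to 130.1 CPM in CD61-high libraries. It encodes the protein the cells were sorted by, so this is a check of the sort and not of osteocyte identity. All CPM levels of single genes and lists in the sorted cells are TMM-scaled (trimmed mean of M-values, edgeR's scaling for composition), with factors of 1.10 to 1.13 in CD61-low and 0.895 to 0.909 in CD61-high libraries. In the sort Dmp1 was 0.328 to 0.879 CPM in CD61-low and 8.87 to 16.2 CPM in CD61-high libraries, below the day 14 libraries. Phex was 9.43 to 11.6 CPM in CD61-low and 37.9 to 58.7 CPM in CD61-high libraries. Sost was 14.3 to 17.6 and 33.1 to 41.7 CPM in the same order, and Sp7 220 to 298 and 787 to 817 CPM. The summed list of 12 osteocyte-like and osteoblast genes, most of it Col1a1, was 35840 to 35900 CPM at day 1. Both day 7 libraries were higher, at 37170 to 37780 CPM, and both day 10 libraries lower, at 27370 to 29420 CPM. At day 14 the list was 30920 to 36060 CPM, on either side of day 1. In the sort it was 17940 to 21910 CPM in CD61-low and 51330 to 54050 CPM in CD61-high cells. Mepe, another osteocyte gene, stayed below 0.5 CPM in every library. Of the markers of other cell types, none of 7 erythroid genes reached a mean of 1 CPM on any day or in CD61-low cells and 1, Hba-a1, did in CD61-high cells, Myog and Myh4 of 8 muscle genes were at 0 in every group, and Snap25, Stmn2 and Elavl4 of 6 neuronal genes were too. The summed erythroid list was 0.390 to 1.03 CPM in CD61-low and 0.939 to 2.48 CPM in CD61-high cells. The summed neuronal list, with 1 gene, Tubb3, above a mean of 1 CPM in every group, was 27.7 to 28.6 CPM at day 1, 83.4 to 90.0 CPM at day 7, 46.3 to 46.5 CPM at day 10 and 49.4 to 49.8 CPM at day 14, and 16.1 to 18.1 CPM in CD61-low and 20.3 to 27.8 CPM in CD61-high cells. The summed muscle list was 3.01 to 3.19 CPM at day 1 and 25.7 to 29.6 at day 14, and 21.1 to 22.7 CPM in CD61-low and 35.0 to 46.6 in CD61-high cells. The summed list of 6 chondrocyte genes was 84.4 to 85.8 CPM at day 1 and 69.7 to 70.7 CPM at day 10, and both day 14 libraries, at up to 123 CPM, were above all earlier ones. It was 38.8 to 48.7 CPM in CD61-low and 101 to 117 CPM in CD61-high cells. The summed level of 10 dissociation stress and immediate early genes was 268 to 277 CPM at day 1, 616 to 634 CPM at day 14, 1465 to 1706 CPM in CD61-low and 2283 to 2847 CPM in CD61-high cells. Other lists were higher in CD61-low cells. The summed macrophage and blood list was 17.1 to 22.8 CPM in CD61-low and 12.5 to 13.2 CPM in CD61-high cells, where Ptprc, Adgre1, Itgam and Fcgr1 were at 0, and 4.77 to 11.9 CPM over the days. The summed adipocyte list was 17.5 to 20.6 CPM in CD61-low and 13.8 to 14.6 CPM in CD61-high cells, and 10.5 to 11.1 CPM at day 1, 28.6 to 30.6 CPM at day 10 and 17.5 to 19.3 CPM at day 14. These sums moved with the groups, and their part in the results was not tested.

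The largest differences between day 14 and day 1 among these genes were those of Slc16a3, Aldoc and Pdk1. Their promoters are shown because the HIF core can be looked for in them, beside that of Tpi1, which was also higher at day 14. The windows are RefSeq sequence on GRCm38.p6, 250 bases before to 50 bases after the start site, on the strand of the gene: Slc16a3 chr11:120948817-120949116 (plus), Aldoc chr11:78322823-78323122 (plus), Pdk1 chr2:71872974-71873273 (plus) and Tpi1 chr6:124814109-124814408 (minus). Capitals mark each ACGTG or GCGTG, the letters searched, on either strand, with overlapping matches joined.
Slc16a3: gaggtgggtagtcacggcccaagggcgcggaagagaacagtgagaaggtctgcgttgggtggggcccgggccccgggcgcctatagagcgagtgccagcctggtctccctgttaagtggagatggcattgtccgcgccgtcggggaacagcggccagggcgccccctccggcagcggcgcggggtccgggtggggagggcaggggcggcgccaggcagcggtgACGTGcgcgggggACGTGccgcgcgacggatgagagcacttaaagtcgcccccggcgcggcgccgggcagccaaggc
Aldoc: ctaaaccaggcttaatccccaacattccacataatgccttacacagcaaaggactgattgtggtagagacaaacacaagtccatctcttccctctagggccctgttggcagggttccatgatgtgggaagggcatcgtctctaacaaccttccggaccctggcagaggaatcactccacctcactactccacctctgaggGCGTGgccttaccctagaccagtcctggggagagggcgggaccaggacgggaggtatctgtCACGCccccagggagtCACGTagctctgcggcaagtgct
Pdk1: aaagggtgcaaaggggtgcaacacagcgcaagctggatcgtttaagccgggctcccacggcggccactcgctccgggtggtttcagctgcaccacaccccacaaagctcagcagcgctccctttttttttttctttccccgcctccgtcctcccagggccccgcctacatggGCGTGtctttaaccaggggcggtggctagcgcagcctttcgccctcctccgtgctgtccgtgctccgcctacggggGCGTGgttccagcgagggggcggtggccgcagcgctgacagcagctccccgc
Tpi1: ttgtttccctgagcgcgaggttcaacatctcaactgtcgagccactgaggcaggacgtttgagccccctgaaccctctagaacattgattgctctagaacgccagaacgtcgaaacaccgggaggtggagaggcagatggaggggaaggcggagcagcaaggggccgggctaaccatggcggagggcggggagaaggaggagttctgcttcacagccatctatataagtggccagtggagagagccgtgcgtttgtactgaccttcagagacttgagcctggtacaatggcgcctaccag

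Slc16a3 held 2 matches, starting 27 and 14 bases before the start site. Aldoc held 3, Pdk1 held 2 and Tpi1 held none. These are the windows RefSeq lists first, and Aldoc has a second with 1 match and Pdk1 a second with 0. RefSeq windows were matched for 37 of the 38 genes, all but Slc2a3, with 57 windows in all. At least 1 match was found in 42 of the 57 windows (73.7%), against 43.8% of all 32851 windows. By gene, 14 of the 16 matched genes called higher at day 14 held one (87.5%), as did 18 of the 21 others (85.7%) and 46.7% of all 27025 genes with a window. Part of these matches can belong to the longer palindrome CACGTG, which other factors also bind and which was in 6 of the 57 windows (10.5%) and in 7.15% of all windows. A gene with more windows has more chances of a match, and there were 57 windows for 37 genes here against 32851 for 27025. Windows of a gene can overlap, as chr4:150236947-150237246 and chr4:150236974-150237273 of Eno1 do, so a match can count again. The shares were not matched for base composition or expression. A match is a description of the letters and not evidence of binding.

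For each comparison, a gene was called when its adjusted p was below 0.01 and its log2 fold change above 1 or below -1. Fold changes in the differentiation experiment are on the log2(CPM + 1) scale, which understates the change of low genes, and 37 of the 38 genes passed the filter on low values in each experiment. Ldhb did not.

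The question of the first comparison was which genes differ after 14 days of differentiation. Between day 14 and day 1, 17 of the 37 tested genes were called higher, where 7.51% of all 12725 genes tested were, and 0 were called lower, where 5.9% of all were. Past the adjusted p alone, 20 rose (32.6% of all genes) and 10 fell (36% of all genes). The median log2 fold change was 0.83 over the 37 genes and -0.03 over all genes. In bulk RNA, a smaller share of cells with a transcript and less of it per cell cannot be told apart. The values of the 38 genes in all 5 comparisons are drawn as a matrix.

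**Figure D1:**
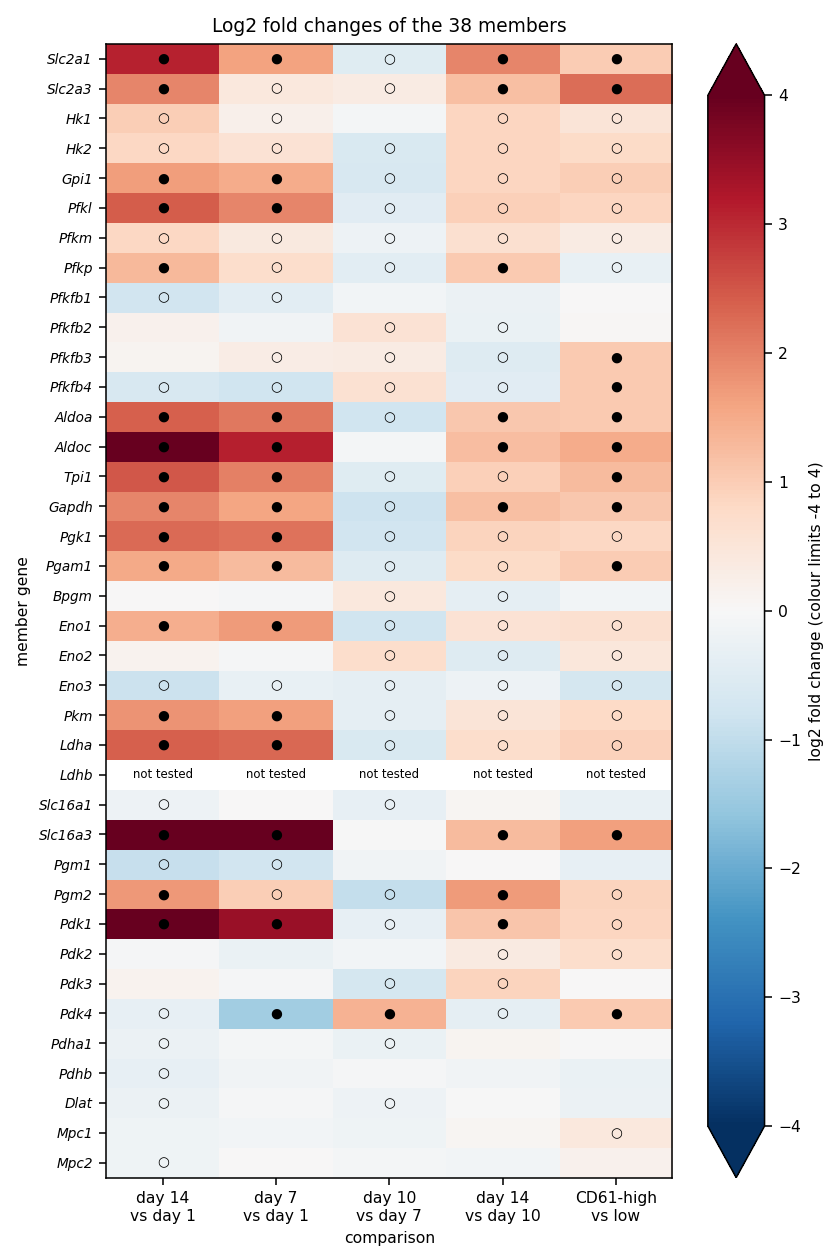
Log2 fold changes of the 38 genes (rows) in the 5 comparisons (columns), with red for higher and blue for lower in the first-named group. Filled circles mark called genes, open circles genes past the adjusted p alone, and Ldhb was not tested. The first and second columns are mostly red down to Ldha, the third is mostly pale blue, and Slc16a3 at day 14 (5.26) exceeds the colour limit.

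Between day 7 and day 1, 14 genes were called higher (4.49% of all genes) and 1 was called lower (4.62% of all). Past the adjusted p, 21 rose (24.5% of all) and 5 fell (32% of all), with a median log2 fold change of 0.39 against -0.05 over all genes. Between day 10 and day 7 the direction differed. Only Pdk4 was called higher (1.43% of all genes were) and 0 genes were called lower (0.786% of all), but 21 fell past the adjusted p (18.9% of all) and 7 rose (29.8% of all), with a median of -0.26 against 0.07. Between day 14 and day 10, 9 were called higher (2.09% of all) and 0 lower (0.872% of all), 22 rose (22.9% of all) and 7 fell (30% of all), with a median of 0.65 against -0.04. No tested gene had a log2 fold change below -1 in limma at day 14 against day 1, at day 10 against day 7 or at day 14 against day 10, at any p, and edgeR on the recovered reads called 0, 1 (Pgm2 of the table) and 0 lower. These comparisons share the libraries of days 1, 7, 10 and 14, so their values stand side by side and are not independent.

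The 38 genes together held 0.388% and 0.390% of all counts in the day 1 libraries, 1.14% and 1.13% on day 7, 0.827% and 0.804% on day 10, then 1.33% and 1.40% on day 14. Day 10 was thus below both day 7 and day 14 in each library. In the sorted cells they held 1.66% to 1.84% of CD61-low counts and 2.54% to 2.82% of CD61-high counts, without overlap. Part of the distance between the experiments lies in 6 genes with near-identical copies in the genome, described with Gapdh. Without these 6, the others held 0.345% and 0.346% at day 1, 1.19% and 1.26% at day 14, 0.719% to 0.808% in CD61-low and 1.09% to 1.17% in CD61-high libraries. The sorted cells were then below the day 14 libraries, where with the 6 genes they were above, and the CD61 groups still did not overlap.

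Between CD61-high and CD61-low cells, 11 of the 37 tested genes were called higher (4.84% of all 12077 genes tested) and 0 were called lower (4.37% of all). Past the adjusted p, 25 rose (19.4% of all) and 2 fell (16% of all), with a median log2 fold change of 0.76 against 0.00 over all genes. No tested gene was below -1 in edgeR at any p, and DESeq2 called 0 lower. Without the second CD61-low library, 6 genes were called higher in place of 11. The log2 fold changes of the 5 lost genes were then 0.92 to 0.99, and the direction of no called gene changed when any library was left out. Scaling by library totals, without TMM, moved the median over all genes to -0.29, and 3 genes were called higher.

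Both glucose transporters were called higher at day 14 and in the sort, Slc2a1 in the sort only just. Slc2a1, the widely expressed transporter GLUT1, was at 46.2 and 45.4 CPM on day 1, 146 and 139.7 on day 7, 111 and 93.4 on day 10, then 389.8 and 406 on day 14. It was lowest in both day 1 libraries and highest in both day 14 libraries, with a log2 fold change of 3.09 ± 0.05 (SE, adjusted p = 4.7e-26). In the sorted cells it was at 242, 187 and 202 TMM-scaled CPM in CD61-low and 417, 432 and 421 in CD61-high libraries, without overlap (log2 fold change 1.01 ± 0.09, adjusted p = 1.3e-05). This value is at the threshold of 1 and was under it in 7 of 14 alternatives, among them DESeq2 (0.9985) and library size alone (0.71), with a range of 0.71 to 1.11. Slc2a3, the high-affinity transporter GLUT3, was at 3.63 and 4.80 CPM on day 1, 5.94 and 5.91 on day 7, 7.58 and 7.93 on day 10, then 18.8 and 19.7 on day 14 (log2 fold change 1.97). It was at 2.97, 3.14 and 2.73 in CD61-low and 14.3, 15.0 and 12.4 in CD61-high libraries, and its log2 fold change of 2.23 ± 0.15 was larger than that of any other of the 37 tested genes in the sort. Per length, Slc2a3 was the minor transporter, with 2.41% ± 0.25 (SD, n = 3) of the summed TPM (Salmon's length-scaled transcript abundance) of the pair in CD61-high cells.

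Hexokinases trap glucose as glucose 6-phosphate. Hk1 rose from 157 and 161 CPM at day 1 to 318 and 308 at day 14 (log2 fold change 0.97), and Hk2 from 44.8 in each library to 85.9 and 74.8 (0.83), both under the threshold of 1. In the sort both rose, with log2 fold changes of 0.50 and 0.76. Hk1 made up 81.2% ± 1.39 (SD, n = 3) of the summed TPM of the pair in CD61-high cells.

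Gpi1, which converts glucose 6-phosphate to fructose 6-phosphate, was at 166 and 175 CPM on day 1, 479 and 467 on day 7, 312 and 296 on day 10, then 546 and 553 on day 14. It was lower in both day 10 libraries than in both day 7 and both day 14 libraries. Its log2 fold change was 1.68 at day 14 and 0.99 in the sort, just under the threshold. The genes named as phosphoglucomutases went opposite ways. The table's symbols Pgm1 and Pgm2 are exchanged against the current GENCODE names, so the genes are given by identifier. ENSMUSG00000025791 (Pgm2 in the table, Pgm1 in GENCODE) was at 64.8 and 68.7 CPM on day 1, 137 and 129.9 on day 7, 71.8 and 65.7 on day 10, then 222 and 230.4 on day 14, and was called higher between day 14 and day 10 (log2 fold change 1.70). Its day 10 libraries overlapped those of day 1. ENSMUSG00000029171 (Pgm1 in the table, Pgm2 in GENCODE) fell from 37.8 and 41.0 CPM at day 1 to 19.5 and 21.2 at day 14 (log2 fold change -0.92), below in both libraries.

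Phosphofructokinase is the main control point of glycolysis. Pfkl, the liver-type subunit, was at 83.3 and 80.9 CPM on day 1, 328 and 313 on day 7, 249 and 217 on day 10, then 446 and 447 on day 14 (log2 fold change 2.43). Pfkm, the muscle type, rose less (0.83). Per length, Pfkm was the largest of the 3 at day 1, with 51.1% ± 1.03 (SD, n = 2) of their summed level, and Pfkl at day 14, with 60.5% ± 0.05. The order at day 1 rests on the deposited lengths, 4372 bases for Pfkl and 2933 for Pfkm. In CPM Pfkm was at 77.8 and 81.4 on day 1, overlapping Pfkl, and their main annotated transcripts are 3997 (Pfkm) and 4101 (Pfkl) bases long.

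Pfkp, the platelet type, rose at day 14 and fell in the sort. It was at 50.6 and 51.9 CPM on day 1, 84.5 and 84.1 on day 7, 65.0 and 59.5 on day 10, then 130.1 and 127 on day 14, called higher at day 14 (log2 fold change 1.31). In the sort it was at 77.8, 70.9 and 75.8 in CD61-low and 64.8, 56.9 and 59.5 in CD61-high libraries, lower in all 3 CD61-high libraries (log2 fold change -0.31 ± 0.08, adjusted p = 0.0076). It no longer passed the adjusted p when any library but the first CD61-high one was left out (adjusted p 0.012 to 0.033), or with an effective-length offset (log2 fold change -0.22, adjusted p = 0.086) or with the replicate number as a block (-0.31, adjusted p = 0.013), while the direction stayed. The difference between these effects was not tested.

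The Pfkfb genes make and break down fructose 2,6-bisphosphate, the activator of phosphofructokinase. At day 14, 0 of the 4 were called, where 7.51% of all genes were called higher and 5.9% lower. Pfkfb1 (log2 fold change -0.76) and Pfkfb4 (-0.63) fell, and Pfkfb2 (0.16) and Pfkfb3 (0.12) did not pass the adjusted p. Pfkfb4 was at 28.9 and 29.2 CPM on day 1, 16.4 and 16.1 on day 7, 25.7 and 25.5 on day 10, then 18.4 and 18.5 on day 14. It fell, rose and fell again from step to step, with log2 fold changes of -0.80, 0.62 and -0.45, where Aldoa, Gapdh and Ldha rose, fell and rose. Pfkfb3, whose enzyme mainly makes the activator, was at 51.4 and 50.0 CPM on day 1, 63.7 and 61.8 on day 7, 72.8 and 86.0 on day 10, then 54.5 and 56.2 on day 14, highest in both day 10 libraries. In the sort both were called higher, Pfkfb3 at 31.8, 30.1 and 38.1 in CD61-low and 69.2, 64.7 and 72.1 in CD61-high libraries (log2 fold change 1.04), and Pfkfb4 at 12.9, 13.6 and 14.4 against 28.6, 27.8 and 28.7 (1.06). Neither pair of groups overlapped.

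**Figure D2:**
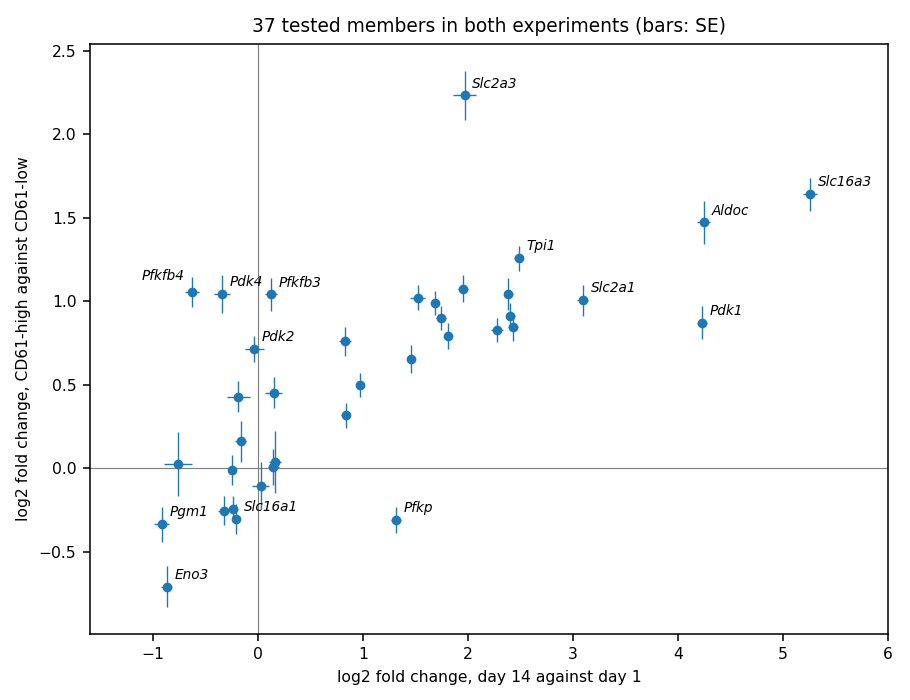
Log2 fold change of the 37 tested genes at day 14 against day 1 (x axis) and in CD61-high against CD61-low cells (y axis), with bars for the standard error. Slc16a3 and Aldoc lie far right and high, Pfkfb3, Pfkfb4 and Pdk4 lie high near or left of 0 on the x axis, and Pfkp is right of 0 but below 0 on the y axis.

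All 5 genes from aldolase to phosphoglycerate kinase were called higher at day 14 (7.51% of all genes were). Aldoa, the main aldolase, was at 265 and 264 CPM on day 1, 1155 and 1121 on day 7, 677 and 639 on day 10, then 1335 and 1438 on day 14 (log2 fold change 2.38). The sorted CD61-low libraries held 1011, 833 and 821 and the CD61-high libraries 1724, 2000 and 1770 (1.04). Aldoc, the brain-type aldolase (chr11:78213619-78218889 on GRCm39), was at 3.98 and 3.64 CPM on day 1, 41.0 and 39.4 on day 7, 38.5 and 37.5 on day 10, then 89.4 and 90.6 on day 14. Unlike Aldoa it did not fall between days 7 and 10 past the adjusted p (log2 fold change -0.08, adjusted p = 0.30), and its day 14 mean was 23.6-fold that of day 1. Aldoc was at 28.2, 19.2 and 23.3 in CD61-low and 68.0, 68.3 and 59.9 in CD61-high libraries (log2 fold change 1.47). Per length it remained the minor aldolase, with 1.26% ± 0.08 of the pair at day 1 and 5.44% ± 0.22 at day 14 (SD, n = 2).

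Tpi1, which interconverts the triose phosphates, was at 359.6 and 342 CPM on day 1, 1399 and 1431 on day 7, 1047 and 992 on day 10, then 1898 and 2028 on day 14 (log2 fold change 2.48). Sorted CD61-low libraries were at 873, 782 and 808 against 1853, 1991 and 2054 in CD61-high libraries (1.26), without overlap. Gapdh, often used as a reference gene, was not constant. It was at 59.5 and 60.9 CPM on day 1, 183 and 181 on day 7, 106 and 98.1 on day 10, then 223 and 249.5 on day 14 (log2 fold change 1.95, adjusted p = 1e-22). In the sort it was at 5124, 4649 and 4687 in CD61-low and 9528, 10889 and 10095 in CD61-high libraries (1.08, adjusted p = 3.2e-06). Pgk1, which makes ATP in the next step, was at 20.7 and 21.6 CPM on day 1, 102 and 94.2 on day 7, 59.6 and 54.2 on day 10, then 103 and 109 on day 14 (log2 fold change 2.28).

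The levels of Gapdh and Pgk1 in the table of the differentiation experiment need care. A search of GRCm39 for copies of at least 100 bases at 98% identity or more found copies over at least 10% of the transcript for 6 of the 38 genes, 32 copies for Gapdh, 3 each for Pgk1 and Pgam1, 2 for Eno1 and 1 each for Gpi1 and Mpc1. The mean level in the sorted cells was 31.7 times the day 14 level for Gapdh, 29.1 for Pgam1, 11.9 for Pgk1, 4.46 for Eno1, 4.35 for Mpc1 and 2.02 for Gpi1. For the 31 other genes above 1 CPM at day 14 this ratio ran from 0.357 to 2.00, with a median of 0.708. The experiments were counted with different tools, and the part of shared reads in these levels was not tested. Of the 31 other genes, 12 were called higher at day 14 (7.51% of all genes were), 9 at day 7 (4.49% of all) and 9 in the sort (4.84% of all).

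**Figure D3:**
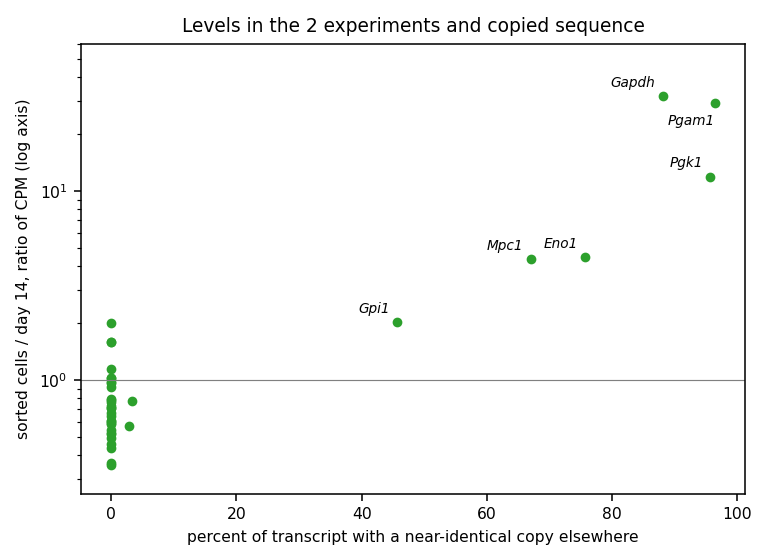
Ratio of the mean level in the sorted cells to the day 14 level (y axis, log scale) against the percent of the transcript with a near-identical copy elsewhere in the genome (x axis), for the genes above 1 CPM at day 14. The 6 labelled genes, with ratios from 2.02 to 31.7, lie above all others, which reach 2.00.

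Pgam1, phosphoglycerate mutase, was at 11.5 CPM in both day 1 libraries, 28.3 and 29.6 on day 7, 21.0 and 18.9 on day 10, then 34.8 and 34.9 CPM on day 14 (log2 fold change 1.52), and at 707, 646 and 654 against 1272, 1454 and 1352 in CD61-high libraries (1.02). Eno1, the ubiquitous enolase, was at 164 and 162 CPM on day 1, 533 and 536 on day 7, 313 and 297 on day 10, then 445 and 457 on day 14 (1.46). It was higher in both day 7 libraries than in both day 14 libraries. Eno3, the muscle enolase, fell from 81.8 and 83.2 CPM at day 1 to 43.3 and 46.0 at day 14 (-0.87), and was at 37.1, 34.4 and 29.6 in CD61-low and 19.5, 23.8 and 18.5 in CD61-high libraries (-0.71), lower in both experiments. Eno2, the neuronal enolase, and Bpgm, which makes 2,3-bisphosphoglycerate, were highest at day 10, with log2 fold changes of 0.71 and 0.43 against day 7 and -0.52 and -0.36 from day 10 to day 14. Neither passed at day 14 against day 1, with log2 fold changes of 0.15 (adjusted p = 0.098) and 0.02 (adjusted p = 0.78). Eno2 rose in the sort, from 25.2, 25.5 and 22.6 in CD61-low to 31.6, 36.2 and 32.5 in CD61-high libraries (log2 fold change 0.45, adjusted p = 0.0024), and Bpgm did not pass there (-0.10).

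Pkm, pyruvate kinase, was at 919 and 915 CPM on day 1, 2869 and 2901 on day 7, 2228 and 2290 on day 10, then 3146 and 3287 on day 14 (log2 fold change 1.81). In the sort it rose by less than the threshold (0.79). Its M1 and M2 forms differ by a mutually exclusive exon of 167 bases, the M1 exon at chr9:59582312-59582478 and the M2 exon at chr9:59582851-59583017 on GRCm39. The M1 transcript made up 3.68%, 4.47% and 4.42% of the estimated counts of both forms in CD61-low and 2.05%, 1.46% and 1.73% in CD61-high libraries. All CD61-high libraries were lower, with a difference of -2.44 percentage points (two-sided exact permutation test, p = 0.1, the smallest that 3 against 3 allows). M2 thus dominated in every sorted library, and the table of the differentiation experiment does not separate the forms.

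Lactate dehydrogenase was almost wholly Ldha. Ldha was at 493 and 495 CPM on day 1, 2443 and 2452 on day 7, 1638 and 1573 on day 10, then 2502 and 2735 on day 14 (log2 fold change 2.40), and rose in the sort (0.91). Ldhb, whose subunit favours the reverse reaction, was at most 0.251 CPM in any library of the differentiation experiment. In the sort it was at 1.20, 1.03 and 1.22 in CD61-low and 0.235, 0.173 and 0.412 in CD61-high libraries, and with no filter on low counts its log2 fold change was -2.05 (adjusted p = 0.0079).

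The order of the lactate transporters changed. Slc16a3, the exporter MCT4 (chr11:120838846-120851694 on GRCm39), was at 3.25 and 2.67 CPM on day 1, 61.5 and 63.8 on day 7, 64.8 and 59.7 on day 10, then 148 and 152 on day 14. Its log2 fold change of 5.26 ± 0.07 (SE, adjusted p = 3.8e-29) was larger than that of any other of the 37 genes, and its day 14 mean was 50.7-fold that of day 1. The day 7 and day 10 libraries overlapped. Slc16a1, the transporter MCT1, was at 117 and 118 CPM at day 1 and 101 and 102 at day 14 (-0.21). Per length, Slc16a3 was 2.05% ± 0.29 of the pair at day 1 and 55.1% ± 0.22 at day 14 (SD, n = 2). In the sort Slc16a3 was at 60.1, 47.0 and 59.2 in CD61-low and 167, 183 and 169 in CD61-high libraries (1.64), and Slc16a1 did not pass the adjusted p (-0.30, adjusted p = 0.019).

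**Figure D4:**
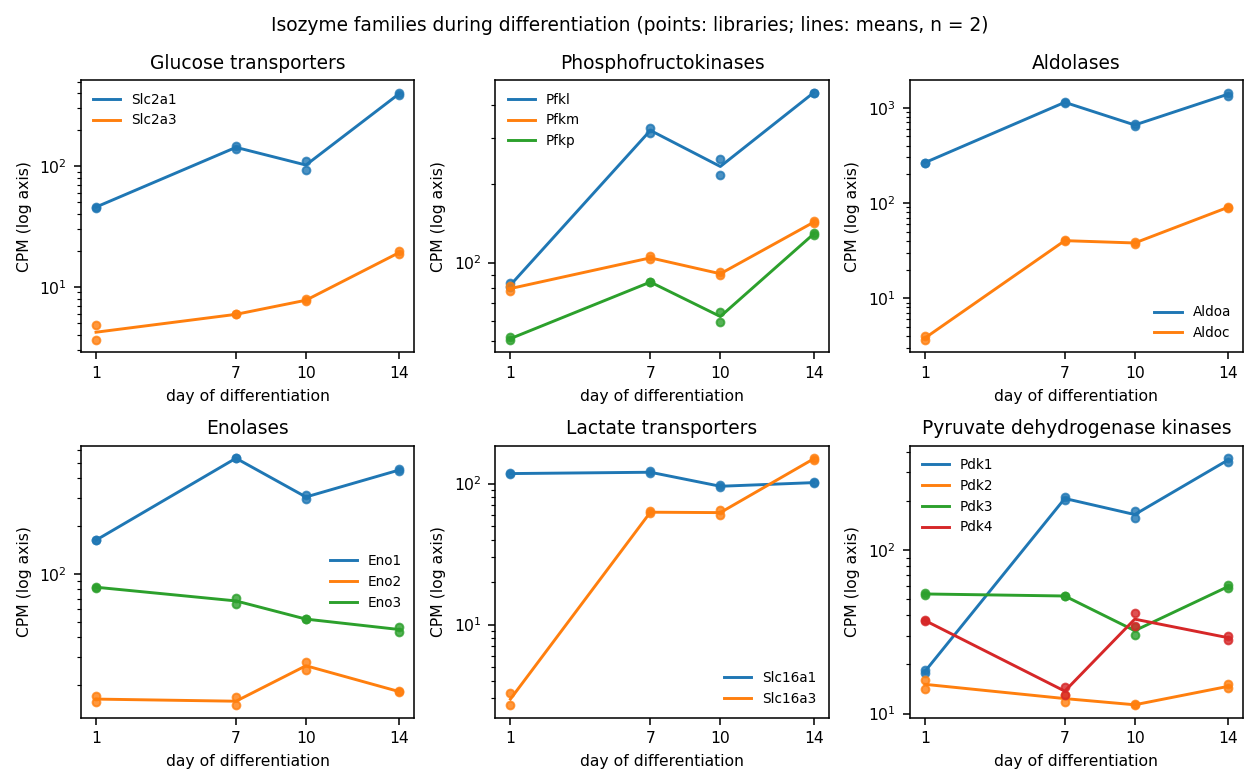
CPM (log axis) of 6 isozyme families by day of differentiation, with points for the 2 libraries of each day and lines through their means. Slc16a3 passes Slc16a1 by day 14, Pdk1 passes the other kinases by day 7, and Pdk4 has its own lowest values at day 7.

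The pyruvate dehydrogenase kinases, which inhibit pyruvate oxidation, each had a course of their own. Pdk1 (chr2:71703488-71734202 on GRCm39) was at 17.8 and 18.4 CPM on day 1, 210.4 and 203 on day 7, 173 and 157 on day 10, then 346 and 366 on day 14. All later libraries were above both of day 1 (log2 fold change 4.23 ± 0.05, adjusted p = 1.9e-30). In the sort it was at 86.3, 81.8 and 101 against 177, 149 and 168, a rise under the threshold (0.87). Pdk4, which fasting induces in muscle, was at 37.5 and 36.7 CPM on day 1, 14.5 and 13.0 on day 7, 34.2 and 41.4 on day 10, then 28.2 and 30.0 on day 14. It was the only gene called lower at day 7 (-1.38) and the only one called higher from day 7 to day 10 (1.39), and its day 10 libraries lay on either side of those of day 1. In the sort Pdk4 was at 14.6, 13.7 and 16.1 in CD61-low and 33.9, 26.6 and 30.9 in CD61-high libraries (1.04). Pdk2 and Pdk3 did not pass the adjusted p at day 14 (-0.04 and 0.15), and Pdk2 rose in the sort (0.72). Per length, Pdk1 was 7.30% of the summed level of the 4 kinases at day 1 and 61.0% ± 0.44 (SD, n = 2) at day 14.

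For the complex and the carrier themselves, log2 fold changes ran from -0.32 to 0.43 over the 5 comparisons. Of the 5 genes, 4 fell at day 14, where 36% of all genes did, Pdhb (log2 fold change -0.32), Pdha1 (-0.25), Dlat (-0.24) and Mpc2 (-0.16). In the 5 comparisons 0 were called. Of all genes, 7.51% were called higher and 5.9% lower at day 14, and smaller shares in the other comparisons, so 0 of 5 says little about these genes. Mpc1 rose in the sort (0.43).

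**Figure D5:**
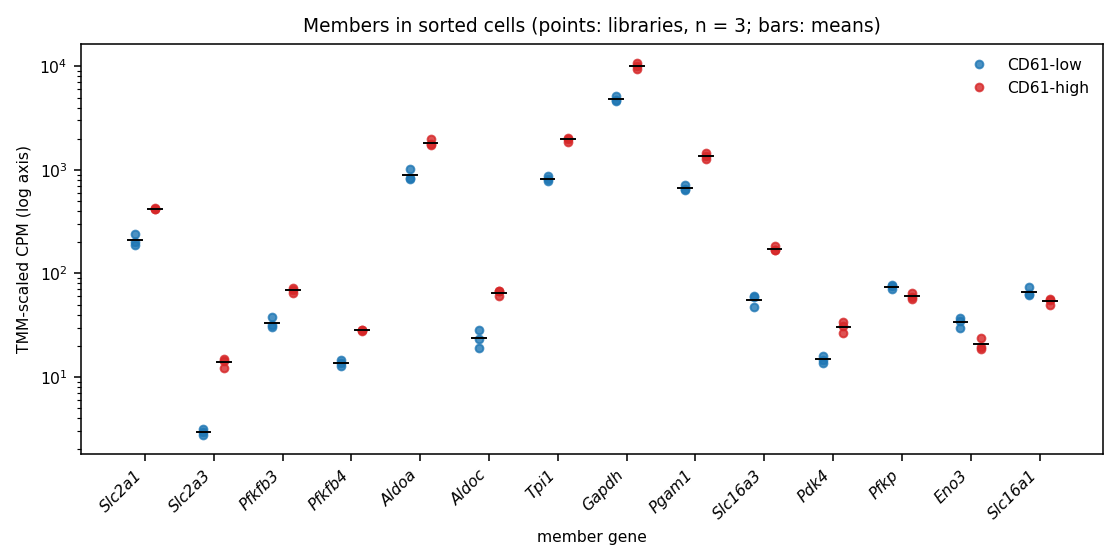
TMM-scaled CPM (log axis) in the 3 CD61-low and 3 CD61-high libraries for the 11 called genes and for Pfkp, Eno3 and Slc16a1, with points for libraries and bars for means. The CD61-high points lie above the CD61-low points for the 11 called genes and below them for the last 3.

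Related lists were counted in the same fits. Of 24 tested HIF factors and HIF targets outside glycolysis, 17 were called higher at day 14 (7.51% of all genes were) and 0 lower (5.9% of all), with a median log2 fold change of 2.43 against -0.03 over all genes. Egln3, a HIF prolyl hydroxylase, rose from 2.59 ± 0.43 to 449.9 ± 6.11 CPM (SD, n = 2), and Ndufa4l2 and Car9, a carbonic anhydrase, by 6.53 and 6.18 on the log2 scale. From day 7 to day 10, 16 of the 24 fell (18.9% of all genes did) and 6 rose (29.8% of all), with a median of -0.43 against 0.07. In the sort 11 of 23 were called higher (4.84% of all genes were), with a median of 0.93, and Epas1, which encodes HIF-2alpha, rose by 1.76.

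Of 15 tested genes of glycogen metabolism, 6 were called higher at day 14 (7.51% of all genes were) and 0 lower (5.9% of all), with a median of 0.59 against -0.03. Pygl, a glycogen phosphorylase, was at 0.292 ± 0.163 CPM at day 1 and 69.5 ± 2.21 at day 14 (SD, n = 2), and Ppp1r3b, a glycogen-targeting subunit of protein phosphatase, at 1.05 and 43.8. In the sort 3 were called higher (4.84% of all genes were), among them Ppp1r3c (2.31).

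Of 18 tested genes of the tricarboxylic acid cycle, 12 fell (36% of all genes did) and 2 rose (32.6% of all) at day 14, with a median of -0.30 against -0.03, and Ogdh was the 1 called lower (-1.12, where 5.9% of all genes were). From day 7 to day 10, 14 fell (18.9% of all genes did) and 1 rose (29.8% of all), with a median of -0.22 against 0.07. In the sort 4 fell and 1 rose, where 16% and 19.4% of all genes did. Of 8 tested genes of the pentose phosphate pathway, 6 fell (36% of all genes did) and 1 rose (32.6% of all) at day 14, with a median of -0.49 against -0.03, led by Pgd (-1.20). In the sort 3 fell and 0 rose, where 16% and 19.4% of all genes did.

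Of 13 tested pyruvate dehydrogenase partners and pyruvate-using genes, 2 were called higher at day 14 (7.51% of all genes were), the malic enzymes Me1 (1.77) and Me2 (1.31), and 2 lower (5.9% of all), among them Pdp2 (-1.65), a phosphatase that reactivates pyruvate dehydrogenase. Past the adjusted p, 2 rose (32.6% of all) and 8 fell (36% of all), with a median of -0.30 against -0.03. In the sort Gpt2, an alanine transaminase, was the 1 called (-1.01), where 4.37% of all genes were called lower. Of 14 tested other isozymes and transporters of glycolysis, 3 were called higher at day 14 (7.51% of all genes were), where 5 rose and 6 fell past the adjusted p (32.6% and 36% of all) and the median was 0.04 against -0.03. The calls were led by Bsg (1.72), the chaperone of the lactate transporters, which was at 679.6 ± 6.16 CPM at day 1 and 2239 ± 78.9 at day 14 (SD, n = 2). Bsg also rose in the sort (0.80).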

How the data were processed

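Ocy454 RNA-seq was analysed from 2 experiments whose libraries were assigned to groups by their labels. For differentiation, reads had been aligned with STAR and assigned with HTSeq, and the authors deposited CPM. The build and versions are not given in the sources used here. Within 0.01 of a read, 100% of the values were whole reads. CPM + 1 was log2-transformed and tested with limma 3.58.1 (trend) across genes above 1 CPM in at least 1 library, all 4 days in 1 fit. For the sort, the authors deposited Salmon estimated counts and TPM per transcript (GRCm39). Estimated counts were summed per gene, rounded and tested with edgeR 4.0.16 (quasi-likelihood, TMM) on genes that reached 5 normalized counts in each of the 6 libraries. P-values were adjusted by Benjamini-Hochberg over all genes tested. Deposited gene lengths and TPM gave the shares per length. Both tests were checked on simulated data. On the recovered reads edgeR called 1339 genes higher and 953 lower at day 14, against 956 and 751. Copies were sought with BLAST+ 2.17.0. Per-library values were named for genes called in any of the 5 comparisons, for isozyme partners that went the other way and for Gapdh, and from each related list up to 3 genes per comparison. Those of Hk1, Hk2, Eno2 and Ldhb were added after their values were seen. The genes and lists were chosen with earlier results of these data known. Alternatives covered scaling, filters, pseudocount, threshold, tool, replicate block and each library left out.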

Additional observations from a re-analysis of the deposited data

How the results depend on the processing

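For the 17 genes called at day 14, every alternative run kept the call (15 alternatives each). For the 11 called in the sort, no direction changed, but 24 of the alternative values, 7 of them for Slc2a1, fell under the fold threshold of 1. The numbers called higher when leaving out 1 library ran from 17 to 17 at day 14 against day 1, 14 to 15 at day 7, 1 to 1 at day 10 against day 7, 8 to 10 at day 14 against day 10 and 6 to 12 in the sort, and those called lower from 0 to 1 at day 10 against day 7. Past the adjusted p, those lower in the sort ran from 1 to 2. With an adjusted p below 0.05, 9 genes were lower at day 7 and 6 in the sort. Between day 10 and day 7, 1 gene (Pgm2 of the table) was called lower with edgeR on recovered reads and 1, the same, with TMM scaling of the CPM. In the sort, library size alone gave 3 called higher, 1 called lower (Eno3) and 7 lower past the adjusted p, no filter gave 1 called lower, filterByExpr gave 1 called lower (Ldhb in both), and the length offset gave 1 lower past the adjusted p. Without the genes with copies, an alternative chosen after seeing the data, 9 were called higher at day 7 (4.49% of all genes were). On TPM the M1 share of Pkm differed by -2.97 percentage points. The causes of these shifts were not tested, apart from the fewer genes counted or tested that an alternative itself sets.

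Same-numbered libraries correlated between -0.03 and 0.06 in the differentiation experiment and at -0.32, 0.22 and -0.06 in the sort, where differently numbered ones ran from -0.41 to 0.47 and not every library correlated best with its own number. By the study's methods the CD61-high and CD61-low cells were sorted from 3 separately collected groups of cells, so they share sources, but the labels do not say that a number marks a source, and the numbers were not taken as pairs. With the replicate block, 17 genes were called higher at day 14 and 11 in the sort, where 23 rose in place of 25 and 1 (Eno3) fell in place of 2. Ldhb in the differentiation experiment, at 0 to 8 reads, is beyond this depth.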
